A study of Arabidopsis thaliana with 5 samples.

Results

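Heat shock proteins and cochaperones were followed here through 4 genes whose RNA was measured in *Arabidopsis* floral buds: AT5G51440, which encodes a small heat shock protein, AT5G48570 (also called *ROF2*), which encodes an FKBP-type immunophilin, *Hsp70-2* (AT5G02490) and *Hop1* (AT1G12270). They are 4 of 13356 genes named on the array, and they were picked by name with their RNA values in *ask1* and L*er* already known. The difference between the genotypes is therefore given for them as a description, with its error and without a test. The samples were 3 arrays of *ask1*-/- unopened floral buds and 2 arrays of wild-type L*er* unopened floral buds, all from the Landsberg *erecta* background and from soil-grown plants of about 5 to 6 weeks without treatment. *ASK1* encodes a SKP1-like subunit of SCF ubiquitin ligases, which mark proteins for degradation. The comparison asks how loss of this subunit alters the floral transcriptome. Mutants were sorted by eye from segregating families. Whole bud clusters with their meristem were sampled, so an array mixes all bud stages and cell types. In such bulk RNA, fewer cells of a type and less RNA per cell cannot be told apart.

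Chaperones help proteins to fold and keep damaged proteins from aggregating. Small heat shock proteins hold unfolding proteins without using ATP, Hsp70 binds and releases them in an ATP-driven cycle started by J-domain proteins, and Hsp90 completes the folding of many regulatory proteins. Hop proteins carry TPR domains that bind the tails of Hsp70 and Hsp90 and link both machines, and large FKBPs such as ROF2 are TPR immunophilins that bind Hsp90. Many of these genes are induced by heat shock factors when proteins unfold, while the cognate Hsp70 genes are also active without stress.

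The values are log2 signals, so that a difference of 1 is a 2-fold difference. Signals of different probe sets are not on a common scale per transcript, and levels were compared between arrays and never between genes. Across arrays, *ask1* replicate 2 stood apart from the other *ask1* arrays. *ask1* replicates 1 and 3 had 24 of 22746 probe sets at least 2-fold apart, against 510 and 543 for *ask1* replicate 2 set against each of them. Set against L*er* replicates 1 and 2, *ask1* replicate 2 had 411 and 360, fewer than against the other *ask1* arrays. Against the same L*er* arrays *ask1* replicate 1 had 538 and 411, and *ask1* replicate 3 had 503 and 561. The L*er* arrays had 292 between them. The probe set of *ASK1* itself carries no gene name here, so the labels could not be checked by the mutated gene. The study, which describes further L*er* arrays, counts *ASK1* among its genes down-regulated in *ask1*. None of the 8 floral organ identity genes or the 7 genes of green tissue chosen as markers is named on the array here, and 2 of 9 tapetum and anther genes are. Their mean log2 signal lay between 6.50 and 7.06 in the *ask1* arrays, and it was 8.71 and 6.46 in L*er* replicates 1 and 2. The part of anther content in the results below was not tested.

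AT5G51440 had the largest difference between the genotypes among the 4 genes. The *ask1* arrays measured 7.86 (replicate 1), 5.84 (replicate 2) and 7.74 (replicate 3) and the wild-type arrays 5.51 and 4.95. Every *ask1* array lay above both L*er* arrays, but *ask1* replicate 2 cleared the higher L*er* array by 0.32 only. The mutant averaged 7.15 ± 1.13 (SD, n = 3) and the wild type 5.23 ± 0.40 (SD, n = 2). This is a log2 ratio of 1.91 (standard error 0.62), or 3.76-fold, which was reached or exceeded by 0.111% of the 22589 genes and unnamed probe sets compared. Within the mutant, *ask1* replicates 1 and 3 averaged 3.89-fold the signal of *ask1* replicate 2, a spread as large as the difference between the genotypes. The L*er* signals lie close to a log2 signal of 5, below which background limits what a ratio can show.

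AT5G48570 had the same order of *ask1* arrays with an overlap between the genotypes. It had log2 signals of 7.93 (replicate 1), 6.34 (replicate 2) and 7.83 (replicate 3) in the mutant, and of 6.38 (replicate 1) and 5.36 (replicate 2) in the wild type. *ask1* replicate 2 lay 0.04 below L*er* replicate 1, so that the genotypes were separated in *ask1* replicates 1 and 3 only. Mutant buds averaged 7.37 ± 0.89 (SD, n = 3) and wild-type buds 5.87 ± 0.72 (SD, n = 2), which gives 2.82-fold or 1.49 on the log2 scale (standard error 0.55). The L*er* arrays themselves differed by 1.02 on the log2 scale. The log2 ratio was 0.98 without L*er* replicate 2, 2.00 without L*er* replicate 1 and 2.01 without *ask1* replicate 2.

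*Hsp70-2*, of the cytosolic Hsp70 family, varied less between arrays than AT5G51440 and AT5G48570. The mutant arrays measured 10.49 (replicate 1), 9.54 (replicate 2) and 10.40 (replicate 3), and the wild-type arrays 9.16 and 9.24. The L*er* arrays were nearly equal, every *ask1* array lay above them, and *ask1* replicate 2 again had the lowest signal of the mutant arrays. With 10.14 ± 0.53 (SD, n = 3) in mutant buds and 9.20 ± 0.06 (SD, n = 2) in wild-type buds, the log2 ratio was 0.94 (standard error 0.29), or 1.92-fold. The gene lies beside *HSC70-1*, another cytosolic Hsp70 gene, which is not named on the array here. Its neighbour on the other side, AT5G02480, had 9.76, 10.13 and 9.93 in *ask1* and 9.50 and 9.59 in L*er*, with *ask1* replicate 2 as the highest array, unlike *Hsp70-2*. Cytosolic Hsp70 genes resemble each other closely, and signal from related transcripts on the *Hsp70-2* probe set was not tested.

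*Hop1* stayed within a narrow band. The mutant arrays had log2 signals of 9.13 (replicate 1), 9.11 (replicate 2) and 9.42 (replicate 3), and the wild-type arrays of 9.34 and 9.18. The genotypes overlapped fully, and the highest and the lowest of the 5 arrays were both from *ask1*. Mean signals were 9.22 ± 0.18 (SD, n = 3) for *ask1* and 9.26 ± 0.12 (SD, n = 2) for L*er*. The log2 ratio was -0.04 (standard error 0.13). All 5 arrays lay within 0.32 of each other on the log2 scale, against 2.91 for AT5G51440, 2.56 for AT5G48570 and 1.33 for *Hsp70-2*.

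**Figure D1:**
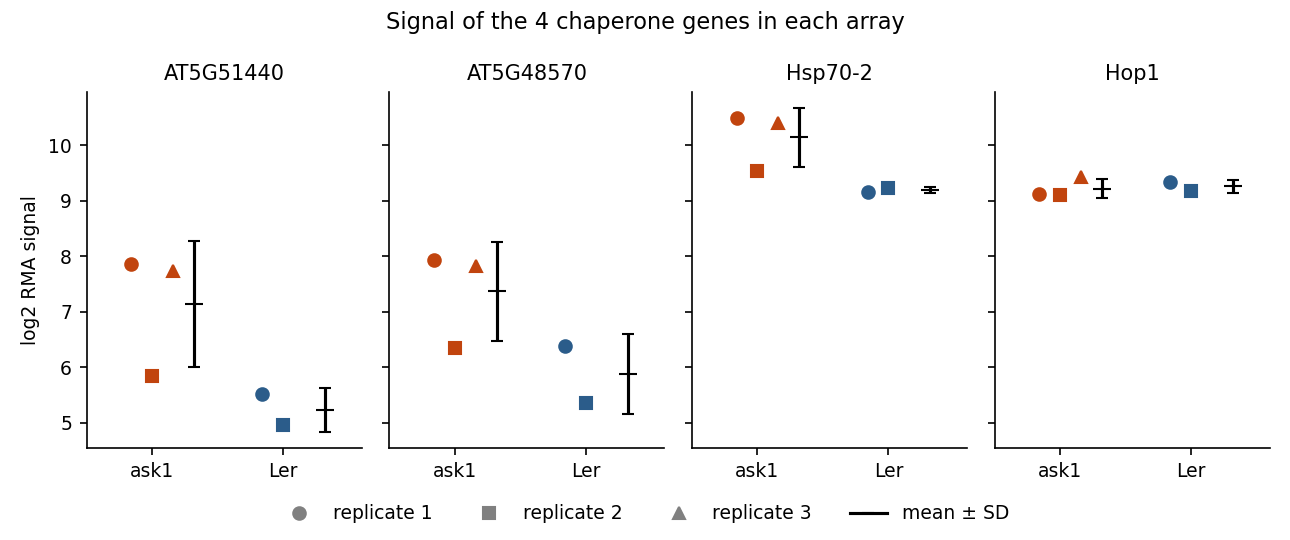
Log2 RMA signal (vertical axis) of each gene in the 3 *ask1* arrays (orange) and the 2 L*er* arrays (blue), with symbols for the replicate number and black bars for the mean and SD of each genotype. In AT5G51440, AT5G48570 and *Hsp70-2* the square of *ask1* replicate 2 lies below the other *ask1* arrays and near L*er*, while *Hop1* stays between 9.11 and 9.42 in all arrays.

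Of the 4 genes, 2 had means at least 2-fold higher in *ask1*, a size reached by 0.531% of all genes and probe sets compared, and 2 had every *ask1* array above every L*er* array, as had 10.2% of all. None of the 4 had every *ask1* array below L*er* (10.7% of all). These counts follow from how the genes were picked and say nothing further about them. The size of the ratios depended on which arrays were used. Without *ask1* replicate 2 the log2 ratio was 2.56 for AT5G51440 and 1.25 for *Hsp70-2*, so that 3 of the 4 genes were at least 2-fold higher (0.704% of all), whereas 1 was without L*er* replicate 2 (0.562% of all). Set against the L*er* mean, *ask1* replicate 2 alone was higher by 0.60 in AT5G51440, by 0.47 in AT5G48570 and by 0.34 in *Hsp70-2* on the log2 scale. In *Hop1* this difference was -0.15.

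**Figure D2:**
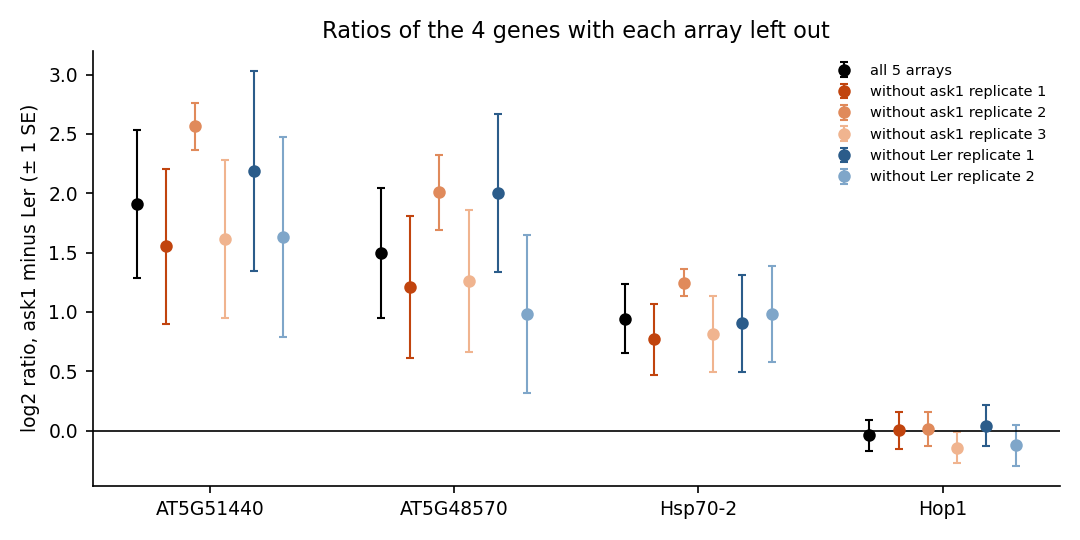
Log2 ratio of *ask1* minus L*er* (vertical axis, points with bars of 1 standard error by limma) for the 4 genes with all 5 arrays (black) and with each array left out in turn. The ratios of AT5G51440 span 1.55 to 2.56, those of AT5G48570 0.98 to 2.01 and those of *Hsp70-2* 0.77 to 1.25, and those of *Hop1* lie on both sides of 0.

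The array profiles of the genes were compared by the root mean square difference of log2 signals, each gene centred on its own mean over the 5 arrays. AT5G51440 and AT5G48570 differed by 0.29, and AT5G48570 was the third closest of all named genes to AT5G51440. The closest gene to both was *ASPGB1*, an asparaginase gene, at 0.23 from AT5G51440 and 0.09 from AT5G48570. *ASPGB1* had 10.05 (replicate 1), 8.31 (replicate 2) and 10.06 (replicate 3) in mutant buds and 8.39 and 7.52 in wild-type buds, with its *ask1* replicate 2 below L*er* replicate 1, as in AT5G48570. Further genes close to one or the other were AT4G19430, AT1G80130 and *BSMT1*, a methyltransferase gene. The 3 genes nearest to *Hsp70-2* were AT1G28570, AT5G25450 and AT3G14200, at 0.12 to 0.13, and their own log2 ratios were 0.89, 1.09 and 1.20. The profile of *Hop1* is nearly flat, and 12018 named genes lay within 0.3 of it against 89 for *Hsp70-2* and 4 each for AT5G51440 and AT5G48570. The likeness is a description over 5 arrays.

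**Figure D3:**
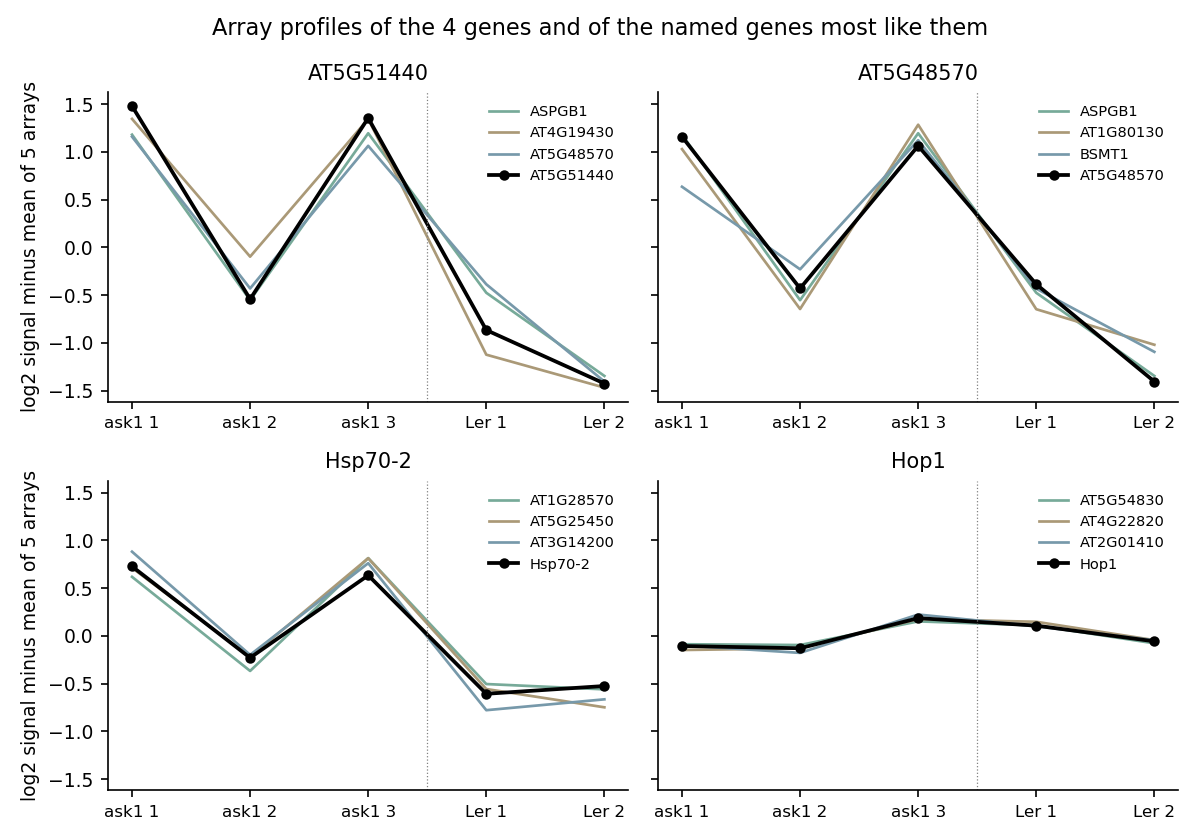
Log2 signal minus the mean of the 5 arrays (vertical axis) in each *ask1* and L*er* array (horizontal axis) for each of the 4 genes (black) and the 3 named genes with the smallest root mean square difference from it (colours), where lines only join the values of a gene. *ask1* replicates 1 and 3 form the peaks in all panels but that of *Hop1*, and the 3 genes nearest *Hsp70-2* differ from it by 0.12 to 0.13.

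Beyond the 4 genes, a selection of chaperone and heat response genes of *Arabidopsis* was listed by role, with earlier results of these data known. It holds 127 genes with the 4, of which 34 are named on the array here. The Hsp90 family (7 listed), the Hsp100 and Clp ATPases (6 listed) and the heat shock factors (21 listed) have 0 named genes, so neither the main partner of Hop proteins nor the factors that induce heat shock genes were analysed here. Over the 30 measured genes other than the 4, the median log2 ratio was 0.15, against -0.01 over all 22589 genes and probe sets. Of these 30 genes 25 had a ratio above 0, as had 47.5% of all. With p-values adjusted over everything compared, limma called 0 of the 30 (0.0133% of all were called). At an unadjusted p under 0.05, 4 had higher means in *ask1* (3.98% of all) and 0 had lower means (2.97% of all), while the methods' t-test gave 2 higher (3.00% of all) and 0 lower means (2.85% of all) and 0 adjusted calls (0 of all). *ask1* replicate 2 had the lowest signal of the 3 *ask1* arrays in 22 of the 30 genes (42.4% of all), and L*er* replicate 2 lay below L*er* replicate 1 in 24 of the 30 (51.7% of all).

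Among the other listed small heat shock protein genes, 9 were measured. By limma 0 of the 9 had an unadjusted p under 0.05 (3.98% of all were higher and 2.97% lower). For so few genes, 0 is near these shares. The highest ratios were those of AT1G54050 at 0.73 (standard error 0.32) and AT2G19310 at 0.64 (standard error 0.34). AT1G54050 averaged 8.70 ± 0.28 (SD, n = 3) in mutant buds and measured 8.48 and 7.47 in wild-type replicates 1 and 2, so that L*er* replicate 1 lay within the mutant range. Of the genes usually at the front of the cytosolic heat response, AT2G29500 and AT1G53540 had ratios of 0.29 and 0.27, with every *ask1* signal at or below 5.18. The lowest ratios belonged to AT4G21870 (-0.21) and AT5G54660 (-0.03), and *ATHSP22.0*, whose product resides in the endoplasmic reticulum, had 0.02. AT5G51440 had 1.91, and the other measured members of the group ranged up to 0.73. This gap is a description, since AT5G51440 was picked with its values known. With AT5G51440, 10 of the 19 listed genes were measured, and 3 of the 10 had mean log2 signals under 5.

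In the Hsp70 family, AT3G09440, a cytosolic Hsp70 cognate, had a ratio close to that of *Hsp70-2*. It measured 11.75 (replicate 1), 11.27 (replicate 2) and 11.65 (replicate 3) in mutant buds and 10.67 and 10.81 in wild-type buds, with all *ask1* arrays above L*er*. Its log2 ratio was 0.81 (standard error 0.16, adjusted p = 0.368 from limma). The other measured Hsp70-related genes, AT4G16660 and AT1G11660, had ratios of 0.24 and -0.10. With *Hsp70-2* and AT3G09440 they are the 4 of 18 listed Hsp70 family genes that are named on the array here. The study, which describes further L*er* arrays, lists the Hsp70 gene AT3G12580 as up-regulated in *ask1*, and it is not among these 4. The small heat shock gene AT5G51440 is on the same list of the study. The chloroplast chaperonin gene *Cpn60beta2* had the smallest adjusted p of the 30 genes, with 11.28, 11.10 and 11.44 in *ask1* and 10.59 and 10.55 in L*er* (log2 ratio 0.70, standard error 0.12, adjusted p = 0.296 from limma). Every *ask1* array of *Cpn60beta2* lay above both L*er* arrays. The related genes *Cpn60beta3* and *Cpn60beta4*, which are not among the listed genes and were looked up after their values were seen, had ratios of 0.52 (unadjusted p = 0.0180 and adjusted p = 0.564 from limma) and -0.25 (unadjusted p = 0.0392 and adjusted p = 0.684 from limma). Every *ask1* array of *Cpn60beta4* lay below both L*er* arrays, so the count of 0 lower genes at such a p holds for the listed genes and not for all chaperone genes on the array.

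The J-domain genes, whose products start the Hsp70 cycle, were led by AT2G20560. It measured 6.64 (replicate 1), 5.28 (replicate 2) and 7.31 (replicate 3) in mutant buds and 5.29 and 5.31 in wild-type buds, so *ask1* replicate 2 was level with L*er* and the other *ask1* arrays were higher. Its log2 ratio was 1.11 (standard error 0.55, adjusted p = 0.786 from limma). *ATERDJ3B*, a J-domain gene of the endoplasmic reticulum, had 0.34. The other 4 listed J-domain genes that were measured ranged from -0.01 (AT3G08910) to 0.13 (AT1G59725).

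The Hop family was measured in full. *Hop1* had a log2 ratio of -0.04, *Hop2* of 0.14 (standard error 0.21) and *Hop3*, the heat-inducible member, of 0.63 (standard error 0.34). *Hop3* measured 6.81 (replicate 1), 5.84 (replicate 2) and 6.90 (replicate 3) in mutant buds and 6.10 and 5.67 in wild-type buds, with *ask1* replicate 2 between the L*er* arrays, as in AT5G48570. The difference between *Hop3* and *Hop1* was not tested. Of the other cochaperones, *SGT1A*, which assists Hsp90 in immune and hormone receptor complexes, had 8.08, 8.53 and 8.11 in *ask1* and 7.68 and 7.67 in L*er*, a ratio of 0.57 (standard error 0.16). In this gene *ask1* replicate 2 was the highest array. *Fes1A*, which associates with cytosolic Hsp70, had a ratio of 0.43 (standard error 0.14), the Hsp90 activator gene AT3G12050 of 0.35, and the p23 gene AT4G02450 of -0.02.

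*SQN* encodes a cyclophilin with TPR domains, which like ROF2 is an Hsp90-binding immunophilin. The gene had a ratio of 0.13 (standard error 0.19). It measured 7.85, 7.46 and 7.96 in *ask1* and 7.83 and 7.43 in L*er*. *HSA32*, a gene of long-term heat acclimation, had 0.30 (standard error 0.13). The 3 measured genes of the endoplasmic reticulum folding list lay near 0, at 0.12 for the calnexin-type gene AT5G07340, 0.04 for the transcription factor gene *BZIP60* and 0.03 for the calreticulin gene *CRT1b*.

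**Figure D4:**
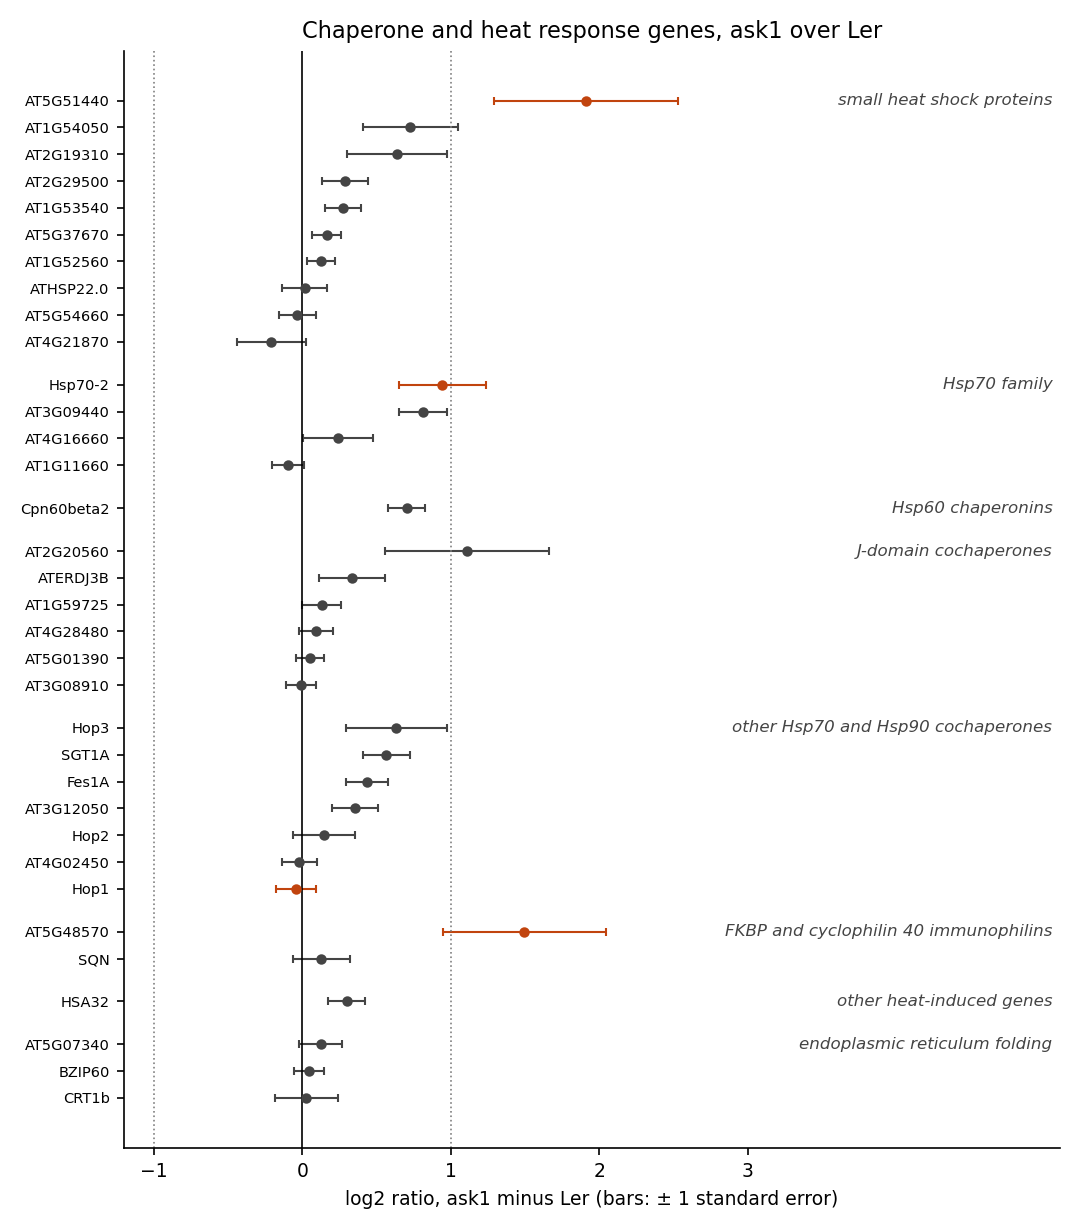
Log2 ratio of *ask1* minus L*er* (horizontal axis) for the 34 listed chaperone and heat response genes that were measured, grouped by role. Bars are 1 standard error by limma, dotted lines mark a 2-fold difference, and AT5G51440, AT5G48570, *Hsp70-2* and *Hop1* are in orange. Beside those, AT2G20560 at 1.11 is the one gene past the 2-fold line, and the group of endoplasmic reticulum folding genes at the bottom lies between 0.03 and 0.12.

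Without *ask1* replicate 2, 12 of the 30 genes had higher means in *ask1* at an unadjusted p under 0.05 (5.99% of all) and 3 passed the adjusted limma test (0.717% of all were higher by it). These were AT2G20560 (log2 ratio 1.67, adjusted p = 0.0287), AT3G09440 (0.96, adjusted p = 0.0227) and *Cpn60beta2* (0.79, adjusted p = 0.0389). *Hop3* was at 0.97 with an adjusted p = 0.0569 from limma in the same arrays. That fit kept *ask1* replicates 1 and 3, which had 24 of 22746 probe sets 2-fold apart, against 2 L*er* arrays. It left out the lowest *ask1* array of 22 of the 30 genes, which raises their ratios. Without *ask1* replicate 1, 3 of the 30 were higher at an unadjusted p under 0.05 (3.10% of all), as were 3 without *ask1* replicate 3 (2.34%). In both fits 0 of the 30 passed the adjusted test. Without L*er* replicate 2, 2 of the 30 were higher at an unadjusted p under 0.05 (3.44% of all). No 2-sided exact permutation test of 3 arrays against 2 can give a p below 0.1, and so few arrays leave each ratio imprecise.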

How the data were processed

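RNA of floral buds was hybridised to Affymetrix ATH1 arrays (3 of *ask1*, 2 of L*er*, whereas the study describes further L*er* arrays that were not analysed here). The authors deposited log2 signals made with RMA, which corrects background, gives all arrays one distribution by quantiles and summarises each probe set. The RMA version is not given in the sources used here. Of 22746 probe sets, the platform annotation pairs 13513 with 1 gene, 503 with several and 8730 (38.4%) with none. Where several single-gene probe sets share a gene, the brightest was kept, and with the remaining probe sets 22589 rows were compared. Symbols came from the RefSeq gene table of TAIR10.1. Each of the 4 genes has 1 probe set. Coordinates and sequences are not given.

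Differences were tested 2-sided by lmFit and eBayes of limma 3.58.1 (R 4.3.3), p-values were adjusted across all rows by the Benjamini-Hochberg method and called under 0.05, and the procedure was checked on simulated data. The labels call the arrays biological replicates. The genes and the lists by role were chosen with earlier results of these data known. Named genes were the 4 genes, up to 3 of the highest and 3 of the lowest ratios in each list, close paralogs, and the 3 nearest profiles of each of the 4 genes. AT5G02480, *Cpn60beta3* and *Cpn60beta4* were chosen after their values were seen. AT1G53540 was also named outside this rule. Results were recomputed with each array left out, with *ask1* replicates 1 and 3 averaged, with a replicate block, with every probe set as a row or the mean of a gene's probe sets, without dim rows (mean log2 signal under 5), after centring or quantile normalization, and with array weights, limma-trend or the methods' t-test.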

Additional observations from a re-analysis of the deposited data

How the results depend on the processing

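Over 15 alternatives the log2 ratios of AT5G51440, AT5G48570 and *Hsp70-2* stayed above 0 and moved by less than the SD between arrays of a genotype, while that of *Hop1* lay between -0.14 and 0.04 and kept its sign in 11. With 1 array left out, 1 to 3 of the 4 genes were at least 2-fold higher, as were 0.452% to 0.868% of all genes and probe sets. The counts of the 4 genes follow from how these were picked. The median of the other 30 chaperone genes ranged from 0.11 to 0.32 in these fits. Higher means at an unadjusted p under 0.05 were found in 4 of those 30 genes with all arrays (3.98% of all genes and probe sets in the same fit). The methods' t-test gave 2 (3.00%), array weights 10 (5.25%) and centring each array on its median 7 (4.17%). Leaving out *ask1* replicate 1, 2 or 3 gave 3 (3.10%), 12 (5.99%) and 3 (2.34%) in that order. Adjusted calls among those 30 genes ranged from 0 to 3. Over all genes and probe sets 1 was higher and 2 were lower by adjusted limma. These counts were 0 and 0 with the methods' t-test and with *ask1* replicates 1 and 3 averaged, 0 and 1 after quantile normalization, and 0 to 162 and 0 to 211 with 1 array left out, the highest without *ask1* replicate 2. The cause was not tested.

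With the replicate number as a block over the numbers both genotypes share, the log2 ratios were 1.62 for AT5G51440, 1.26 for AT5G48570, 0.81 for *Hsp70-2* and -0.14 for *Hop1*, and the calls over all rows were 1 higher and 1 lower. Deviations from the genotype means had correlations of -0.26 and -0.01 between arrays of the same number. The deviations of 2 L*er* arrays mirror each other, so these values cannot decide whether arrays of the same number belong together. Signals near background limit the ratios of 4 of the 30 genes, whose mean log2 signal was under 5.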
